A study of Homo sapiens with 8 samples.

Results

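Caffeine-treated 22Rv1 cells were compared with untreated 22Rv1 cells, with 1 Affymetrix U133 Plus 2.0 array on each side. 22Rv1 is an established human prostate carcinoma line, and it came from CWR22, a xenograft that had relapsed in castrated mice. The caffeine array came from a plate kept for 4 h in medium with 10 mM caffeine, and the untreated array came from a plate without the drug. The study used caffeine to inhibit nonsense-mediated mRNA decay (NMD), the pathway that destroys mRNAs with premature stop codons. The series holds 8 arrays, 4 from each of 2 prostate cancer lines, and the other plates of each line went on for a further 4 h in 2 µg/ml actinomycin D, which blocks transcription, with caffeine or without it. The comparison used all 54675 probe sets, and a probe set or gene was called detected when its signal was at least 4 on the log2 scale on either array. It was called higher or lower when the difference, caffeine minus untreated, was at least 1 log2 unit, which is a factor of 2. Where a gene had several probe sets, the brightest on average over the 8 arrays stood for it. Because each side had a single array, no difference has a replicate check and no test was possible.

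Caffeine acts on cells in several ways. It inhibits cyclic nucleotide phosphodiesterases, so that cAMP accumulates, and cAMP activates protein kinase A, which phosphorylates the transcription factor CREB bound to cAMP response elements. At high concentrations it also inhibits kinases of the PI3-kinase-related family, among them ATM, ATR, mTOR and SMG1, and SMG1 phosphorylates the NMD factor UPF1. It blocks adenosine receptors and opens ryanodine receptors, the calcium channels of the endoplasmic reticulum.

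Of 21933 detected probe sets, 2025 were higher after caffeine (9.23%) and 1708 were lower (7.79%). Among 10961 detected genes, 922 were higher (8.41%) and 671 lower (6.12%), and these percentages are the background for every count of genes below. The median difference over genes was -0.02, the quartiles were -0.38 and 0.38, and 159 genes were higher and 81 lower by 2 units or more. Of the higher genes, 151 had an untreated signal under 4, and of the lower genes 127 had a caffeine signal under 4, so their differences rest partly on signals near background. With signals under 4 set to 4, 851 genes were higher and 594 lower. GIT2 at 1.0001 lay just inside the cut-off, and SMAD4 at 0.9999 just outside it. The only repeat measurement on these arrays was the spread between probe sets of the same gene. Its pooled SD was 0.65 log2 units, over 12857 probe sets of 4986 genes, and it was 0.81 for probe sets with a mean signal under 6 and 0.31 for those at 10 or more. That SD covers differences between probe sets on the same pair of arrays and not differences between plates. A shift in mRNA level per cell cannot be told apart from a shift in the mix of cells in the plate.

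Other probe sets of a gene mostly ran in the same direction. A probe set under 4 on 1 array counted as detected only through the other array, which fixed its direction. The shares below include such probe sets. Of the higher genes, 455 had another detected probe set, and 549 of these 698 probe sets (78.7%) were also above zero, against 45.1% of the other probe sets of all detected genes. For the lower genes, 312 of 436 other probe sets (71.6%) were below zero, against 54.8% for all detected genes. Past 1 unit in the same direction were 290 (41.5%) of those of the higher genes and 150 (34.4%) of those of the lower genes, against 10.4% and 9.72% of the other probe sets of all detected genes.

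The cells showed the markers of their label. All 9 measured markers of prostate epithelium were detected on both arrays, between 5.56 (FOLH1) and 13.38 (KRT18) after caffeine and between 5.70 and 13.07 in untreated cells, whereas none of 4 leukocyte markers reached 4 on either array. Of 6 fibroblast or endothelial markers, COL3A1, PECAM1 and CDH5 were below the floor and COL1A1, DCN and LUM were detected. COL1A1, a collagen chain, stood at 8.65 after caffeine and 5.86 in untreated cells, while LUM stood at 9.42 after caffeine and 10.21 in untreated cells, so these markers did not move one way. The hybridization controls, added in equal amounts, differed by -0.13 (SD 0.11, 18 probe sets). The poly-A controls differed by -0.26 on average, by -0.52 at their 5′ ends and by -0.07 at their 3′ ends (8 probe sets each), and the ACTB control probe sets by -0.94 at the 5′ end and -0.43 at the 3′ end. The 5′ ends of these controls were thus lower on the caffeine array, and the part of this in the results was not tested.

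**Figure D1:**
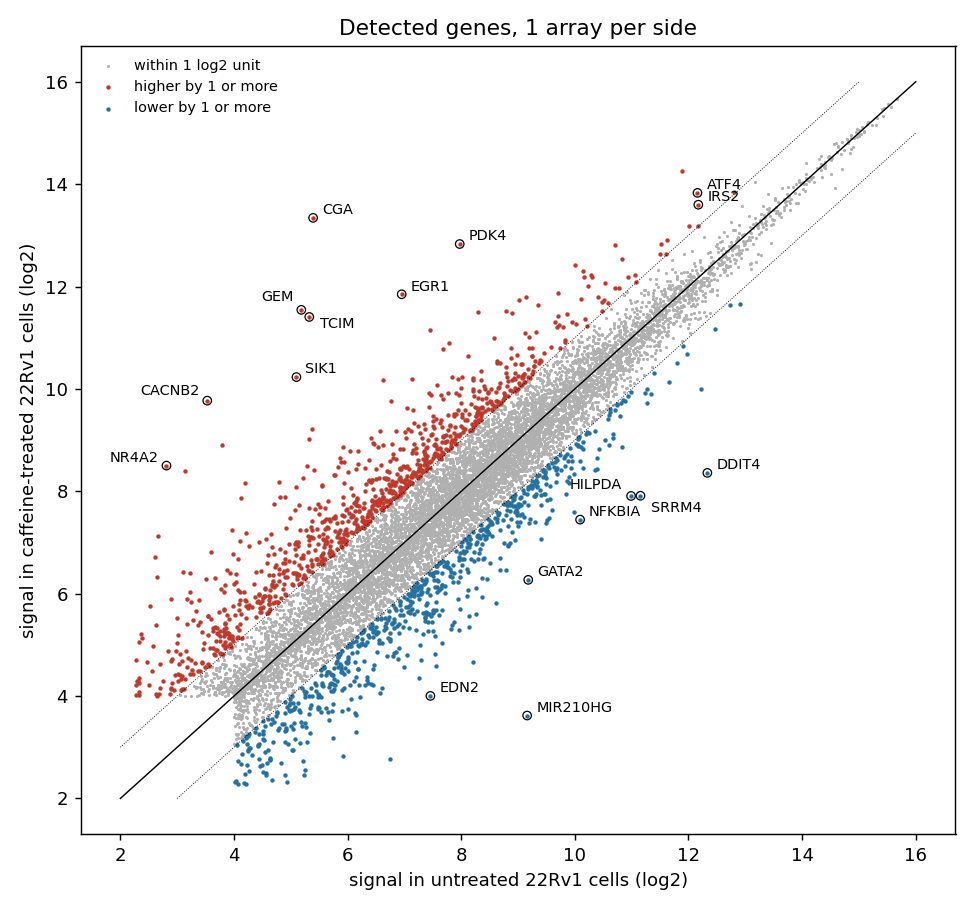
Signal of each of 10961 detected genes in caffeine-treated (y axis, log2) and untreated (x axis, log2) 22Rv1 cells, 1 array each, with the solid line at equal signal and dotted lines at differences of 1. The 922 higher genes (red) reach farther from the line than the 671 lower genes (blue), up to 7.95 for CGA and down to -5.54 for MIR210HG.

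CGA had the highest difference of all detected genes. It encodes the alpha subunit shared by the glycoprotein hormones of the pituitary and placenta, and its promoter is a classical target of cAMP. Its signal was 13.34 after caffeine and 5.39 in untreated cells, a difference of 7.95 or a ratio of 247. A second probe set of CGA, at 5.02 after caffeine and 2.28 in untreated cells, differed by 2.74. The RefSeq promoter windows (GRCh38.p14, 250 bases before to 50 after each start, written on the strand of the gene) were searched on both strands for the full cAMP response element TGACGTCA, a palindrome. It stood in 1.85% of 35116 windows of all genes, in 2.84% of the windows of detected genes, in 4.14% of those of higher genes (48 of 1159) and in 2.11% of those of lower genes. In the cAMP and CREB list described below, 5 of 38 windows (13.2%) held the element. Of the 10 higher members of that list with a window, 2 held it, CGA and CREM. A match is a description of these letters only. The stretches below show it in capitals in CGA and in 3 other genes of the higher group, MAFF and PPP1R15A from the 25 highest and IFRD1, a transcriptional regulator at 11.80 after caffeine and 9.14 in untreated cells.
CGA (chr6:87095197-87095256, minus strand): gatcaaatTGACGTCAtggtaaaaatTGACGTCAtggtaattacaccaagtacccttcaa
MAFF (chr22:38201914-38201963, plus strand): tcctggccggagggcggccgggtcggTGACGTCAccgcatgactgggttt
PPP1R15A (chr19:48872341-48872390, plus strand): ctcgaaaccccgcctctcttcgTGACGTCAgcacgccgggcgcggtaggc
IFRD1 (chr7:112450380-112450429, plus strand): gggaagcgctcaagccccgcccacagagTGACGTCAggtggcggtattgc
CGA holds the element in 2 copies, starting 142 and 124 bases before its start, and the other 3 genes hold 1 copy each, between 52 and 58 bases before theirs.

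The next genes by difference were of several kinds. GEM, a small GTPase that binds calcium channel beta subunits and reduces channel activity, was at 11.54 after caffeine and 5.18 in untreated cells. CACNB2, one of those beta subunits, was at 9.77 after caffeine and 3.53 in untreated cells, where it lay below the floor. With signals under 4 set to 4 its difference of 6.24 became 5.77, and its 4 other detected probe sets differed by 1.93 to 4.93. SIK1, a kinase that is induced by cAMP and restrains CREB coactivators, was at 10.23 after caffeine and 5.10 in untreated cells. TCIM, a small regulator of transcription, was at 11.41 after caffeine and 5.32 in untreated cells, and the long noncoding RNA DSCAM-AS1 was at 8.91 after caffeine and 3.79 in untreated cells.

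PDK4 was the highest metabolic enzyme. It phosphorylates pyruvate dehydrogenase and so spares glucose. Its signal was 12.83 after caffeine and 7.97 in untreated cells, and its 2 other probe sets differed by 5.98 and 6.24, more than the main one. SIRT1, an NAD-dependent deacetylase, was at 10.20 after caffeine and 7.13 in untreated cells with no other detected probe set. Among the other genes of the 25 highest was the cytokine receptor kinase JAK1, at 8.18 after caffeine and 4.79 in untreated cells. The paper states that JAK1 is mutated in these cells and also in LNCaP, the other line of the series. In LNCaP the difference of JAK1 was 2.84. The part of the mutations in these differences was not tested. TGFBR2, the type II receptor of TGF-beta, was at 7.25 after caffeine and 3.97 in untreated cells.

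Of the 25 highest genes, 16 had another detected probe set, and in all 16 every other detected probe set was higher too. Several of these probe sets, such as those of CGA, NR4A2 and DUSP6, were under 4 in untreated cells. They counted as detected only through the caffeine array, so the filter fixed their direction and they are no independent check. The smallest difference among the 25, with signals under 4 set to 4, was 3.06, and 6 of the 25 had an untreated signal under 4.

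**Figure D2:**
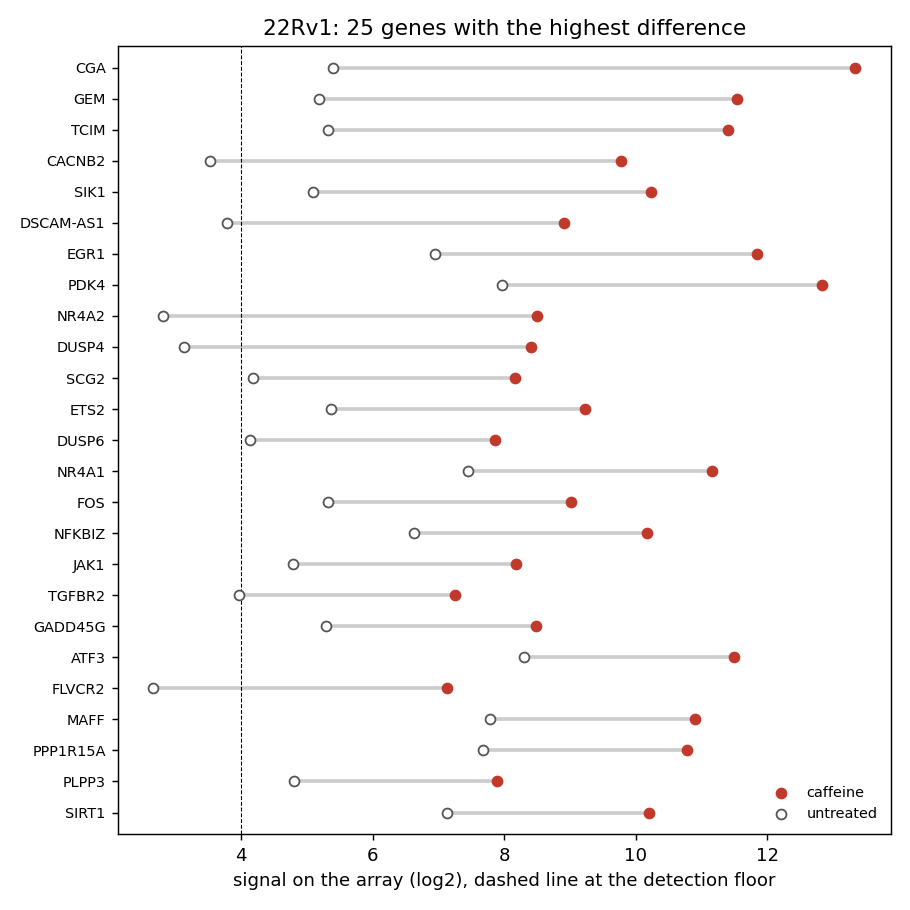
Signals (log2) of the 25 genes with the highest difference, ranked with signals under 4 set to 4, after caffeine (filled) and in untreated cells (open), 1 array each. Caffeine signals lie between 7.13 (FLVCR2) and 13.34 (CGA), and 6 untreated signals lie left of the floor.

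The listed genes of the cAMP and CREB pathway had a median difference of 2.07, against -0.02 over all detected genes. Of 28 listed genes 26 were measured and 20 detected, and 12 of these 20 (60.0%) were higher and 1 was lower. The nuclear receptors of the NR4A group, early targets of CREB, were all higher. NR4A1 was at 11.15 after caffeine and 7.45 in untreated cells, NR4A2 at 8.50 after caffeine and 2.81 in untreated cells, and NR4A3 at 6.82 after caffeine and 3.59 in untreated cells. The untreated signals of NR4A2 and NR4A3 were under the floor, which makes their differences of 5.69 and 3.22 uncertain in size. PTGS2, the inducible cyclooxygenase, was at 6.72 after caffeine and 2.60 in untreated cells. SCG2, a secretory granule protein, was at 8.17 after caffeine and 4.19 in untreated cells. CREM, whose short ICER forms repress cAMP response elements, was at 9.18 after caffeine and 6.58 in untreated cells. The coactivators CRTC2 (0.90), CRTC3 (0.48) and CRTC1 (0.08) stayed within 1 unit. RGS2, a regulator of G protein signalling, was abundant on both arrays, at 13.99 after caffeine and 14.04 in untreated cells. The one lower member was STC1, a secreted glycoprotein, at 4.23 after caffeine and 5.69 in untreated cells.

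Genes of the phosphodiesterase list, most of them for enzymes that break down cyclic nucleotides, a class that caffeine inhibits, moved in both directions. Of 10 detected, 4 were higher and 1 lower. The cAMP-specific PDE4B was at 7.68 after caffeine and 5.51 in untreated cells, and PDE4D at 7.92 after caffeine and 6.10 in untreated cells. The cGMP-specific PDE5A (1.88) and the cAMP-specific PDE7A (1.42) were the other higher members, and PDE3B, the phosphodiesterase that insulin activates, was lower at -1.04. Other targets of the drug moved little in mRNA level. None of 6 detected PIKK kinases and adenosine or ryanodine receptors passed 1 unit. ATR at -0.83 was the farthest, then ATM at -0.44, PRKDC at -0.40 and MTOR at -0.14. The adenosine receptor ADORA1 differed by -0.03.

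Immediate early genes encode transcription factors and regulators that respond within minutes to growth factors, calcium and stress. Of 21 detected, 13 (61.9%) were higher and none lower, with a median of 1.31, and CCN1 lost the call with signals under 4 set to 4 (1.36 and then 0.26). EGR1, a zinc finger factor, was at 11.85 after caffeine and 6.95 in untreated cells, and its 2 other probe sets differed by 4.22 and 5.02. FOS was at 9.01 after caffeine and 5.32 in untreated cells. EGR3 was at 6.33 after caffeine and 2.65 in untreated cells, under the floor. The basic leucine zipper factors ATF3 and FOSL2 differed by 3.20 and 2.48, and MAFF, a small Maf protein outside the list, by 3.13, whereas JUN (0.56), JUNB (0.83) and JUND (0.64) stayed within 1 unit. MYC did not differ beyond the spread between probe sets, at 11.81 after caffeine and 11.83 in untreated cells. The list shares members with other lists, among them NR4A1 and FOS with the cAMP list and ATF3 with the ATF4 list below. It also holds KLF10, a Krüppel-like factor, and MCL1 of the BCL2 family, so the counts are not independent.

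Inhibitors that ERK signalling induces and that switch it off again were also high. Of 15 detected, 9 (60.0%) were higher and 1 lower, with a median of 1.47. DUSP4, a nuclear MAP kinase phosphatase, was at 8.41 after caffeine and 3.13 in untreated cells, and DUSP6, the cytoplasmic ERK phosphatase, at 7.86 after caffeine and 4.13 in untreated cells. SPRY2 was at 7.68 after caffeine and 5.33 in untreated cells, and SPRY4 at 4.99 after caffeine and 2.57 in untreated cells. Both belong to the Sprouty proteins, which act upstream of RAF. With signals under 4 set to 4, SPRY4 (0.99) and DUSP5 (0.71) lost the call and 7 members stayed higher. ERRFI1, which binds and inhibits the EGF receptor, was at 12.81 after caffeine and 10.71 in untreated cells. DUSP7 was the lower member, at 4.84 after caffeine and 6.08 in untreated cells. Among EGF receptors and ligands, 3 of 6 detected were higher and 1 lower. EGFR itself was at 11.42 after caffeine and 9.70 in untreated cells, but one of its 3 other probe sets ran the other way, at 9.11 after caffeine and 10.96 in untreated cells. ERBB2 was at 10.13 after caffeine and 9.10 in untreated cells, and ERBB4 was lower, at 5.37 after caffeine and 6.86 in untreated cells. The ligand HBEGF was at 4.73 after caffeine and 3.19 in untreated cells, and its difference of 1.55 became 0.73, under the cut-off, with signals under 4 set to 4.

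Krüppel-like factors, zinc finger proteins that bind GC-rich promoters, had a median of 1.10, with 7 of 13 detected higher and 1 lower, and KLF12, at 1.10, was just under the cut-off (0.98) with signals under 4 set to 4. KLF6 was at 11.64 after caffeine and 9.34 in untreated cells, with its other 3 probe sets at -0.27, 1.01 and 1.83, and KLF4 differed by 1.76. KLF7 and KLF3 depended on the probe set. The main probe set of KLF7 differed by 2.26, with others at 2.59, 2.20, -2.11 and -2.13. That of KLF3 differed by -1.42 and its 3 others by 0.40 to 1.59.

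**Figure D3:**
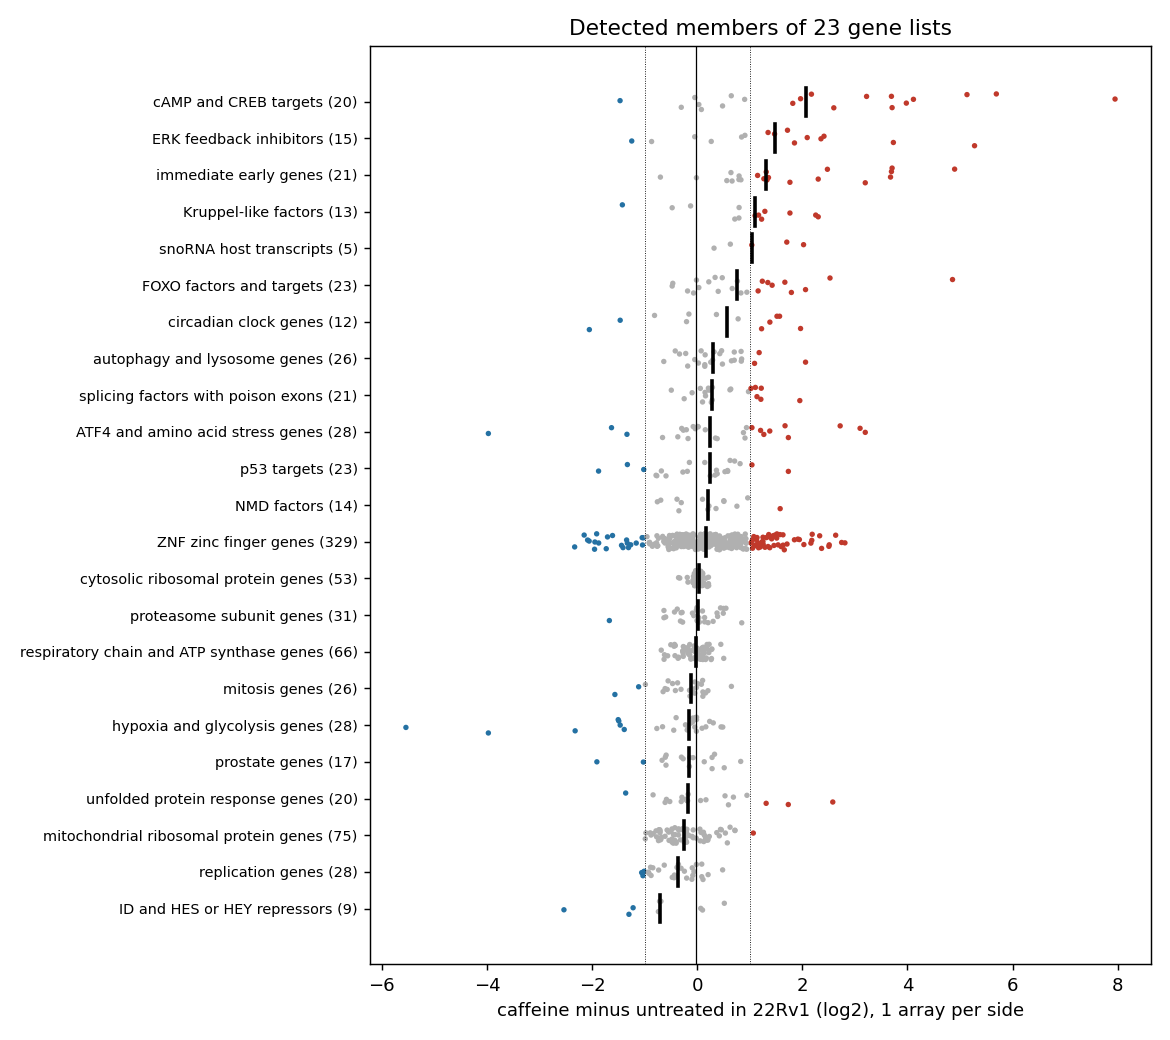
Difference, caffeine minus untreated in 22Rv1 (log2, 1 array per side), of the detected members of gene lists ordered by their median (black bar), with the number detected in parentheses and red and blue points past 1 unit in either direction. The cAMP and CREB list has the highest median (2.07) and the ID and HES or HEY list the lowest (-0.72), while cytosolic ribosomal protein genes sit close to zero.

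ATF4 is translated when the initiation factor eIF2alpha is phosphorylated, and it activates genes of amino acid supply and stress. Of 28 detected genes of this list, 9 (32.1%) were higher and 3 lower, with a median of 0.25. The member farthest from zero was a lower one, DDIT4, at 8.36 after caffeine and 12.33 in untreated cells. The hypoxia and glycolysis list described below also holds DDIT4. Higher members included transcription factors, feedback genes, a transporter and an enzyme. ATF4 itself was at 13.83 after caffeine and 12.16 in untreated cells, and DDIT3 (CHOP) at 11.73 after caffeine and 9.01 in untreated cells. PPP1R15A (GADD34), which directs the dephosphorylation of eIF2alpha, was at 10.78 after caffeine and 7.68 in untreated cells, and its other probe set differed by 3.39. SESN2, an inhibitor of mTORC1, was at 7.05 after caffeine and 5.31 in untreated cells. The transcription factors ATF5 (-0.04) and CEBPB (0.35) and the feedback gene TRIB3 (0.94) stayed within 1 unit. Among enzymes of amino acid metabolism, CTH of cysteine synthesis was higher (1.21), ASNS differed by -0.17, PHGDH by -0.29 and MTHFD2 by 0.02, and PSAT1, the aminotransferase of serine synthesis, was lower, at 9.04 after caffeine and 10.67 in untreated cells. The transporter SLC7A11 was at 7.89 after caffeine and 6.63 in untreated cells, and the transporter SLC7A5 at 5.34 after caffeine and 6.67 in untreated cells.

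Genes of the unfolded protein response of the endoplasmic reticulum had 3 of 20 detected higher and 1 lower. Of the sensors, ATF6 differed by 0.59 and the other two were higher, with EIF2AK3 (PERK) at 9.62 after caffeine and 7.04 in untreated cells and ERN1 (IRE1) at 7.46 after caffeine and 6.15 in untreated cells. DNAJB9, a cochaperone of the reticulum, differed by 1.73. The abundant chaperone HSPA5 (BiP) was not called, at 11.48 after caffeine and 12.09 in untreated cells. Of 14 detected chaperones of the heat shock list, 0 passed 1 unit in either direction.

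FOXO factors act when insulin and AKT signalling is low. Of 23 detected FOXO factors and targets, 9 (39.1%) were higher and none lower, with a median of 0.77. Beside PDK4, FBXO32 (atrogin-1), a ubiquitin ligase, was at 5.52 after caffeine and under the floor in untreated cells, a difference of 2.53, or 1.52 with signals under 4 set to 4. The insulin receptor substrate IRS2 was at 13.60 after caffeine and 12.17 in untreated cells, and the PI3-kinase inhibitor PIK3IP1 at 8.64 after caffeine and 6.84 in untreated cells. FOXO1 was at 7.30 after caffeine and 5.63 in untreated cells, FOXO3 at 10.16 after caffeine and 8.82 in untreated cells, and FOXO4 differed by -0.07. The cell cycle inhibitor CDKN1B (p27) was at 12.22 after caffeine and 11.06 in untreated cells. Of 5 arrestin-domain genes 2 were higher, ARRDC4 at 10.99 after caffeine and 8.58 in untreated cells and ARRDC3 at 7.13 after caffeine and 5.49 in untreated cells, while TXNIP, the member that restrains glucose uptake, differed by 0.40. Autophagy and lysosome genes had 3 of 26 higher and none lower. These were GABARAPL1, an autophagosome protein that the FOXO list also holds, FNIP1 and RRAGD, which act in the signalling of the lysosome to mTORC1, with differences of 2.06, 1.18 and 1.09.

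MIR210HG had the lowest difference of all detected genes. It is the host transcript of miR-210, a microRNA that hypoxia-inducible factor (HIF) induces. Its signal was 3.62 after caffeine and 9.16 in untreated cells, a difference of -5.54, and its other probe set differed by -3.94. DDIT4 (REDD1), an inhibitor of mTORC1 that hypoxia induces, followed at 8.36 after caffeine and 12.33 in untreated cells. HILPDA, a lipid droplet protein induced by hypoxia, was at 7.91 after caffeine and 10.99 in untreated cells, and its other probe set differed by -2.78. Of 28 detected genes of the hypoxia and glycolysis list, 7 were lower and none higher, with a median of -0.15. HILPDA was not on that list. PFKFB3, which makes the activator of phosphofructokinase, was at 7.08 after caffeine and 9.40 in untreated cells. HK2, the inducible hexokinase, was at 8.17 after caffeine and 9.67 in untreated cells, the glucose transporter SLC2A1 at 5.59 after caffeine and 6.98 in untreated cells, and the ankyrin repeat gene ANKRD37 at 7.32 after caffeine and 8.81 in untreated cells. Most of the list was not called. Enzymes of glycolysis after the hexokinase step stayed within 0.5 units, with LDHA at -0.22, ALDOA at -0.17, PGK1 at -0.12 and ENO1 at -0.09, and so did the mitophagy genes BNIP3 and BNIP3L, both at -0.01, the demethylase KDM3A (-0.01) and the prolyl hydroxylases P4HA1 (0.31) and EGLN1 (-0.45). Of the 7 lower members, BHLHE40 lost the call with signals under 4 set to 4.

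The core of the hypoxia response element, ACGTG, was searched in the same windows on both strands. It stood in 21.4% of all windows, in 26.1% of those of detected genes, in 27.7% of those of lower genes and 23.3% of those of higher genes, in 55.3% of those of the hypoxia and glycolysis list (21 of 38) and in 7 of the 9 windows of its lower members. Of these 7 lower members, 6 held it in at least 1 window. The lowest members and ANKRD37 are shown with the core in capitals, read on the strand of the gene.
DDIT4 (chr10:72273774-72273823, plus strand): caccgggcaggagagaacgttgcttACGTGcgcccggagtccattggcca
MIR210HG (chr11:568603-568652, minus strand): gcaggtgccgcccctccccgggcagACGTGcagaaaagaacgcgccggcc
ANKRD37 (chr4:185396661-185396710, plus strand): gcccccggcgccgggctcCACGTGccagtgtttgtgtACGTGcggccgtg
In ANKRD37 the first capitals hold the core on both strands, since CACGTG is a palindrome.

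**Figure D4:**
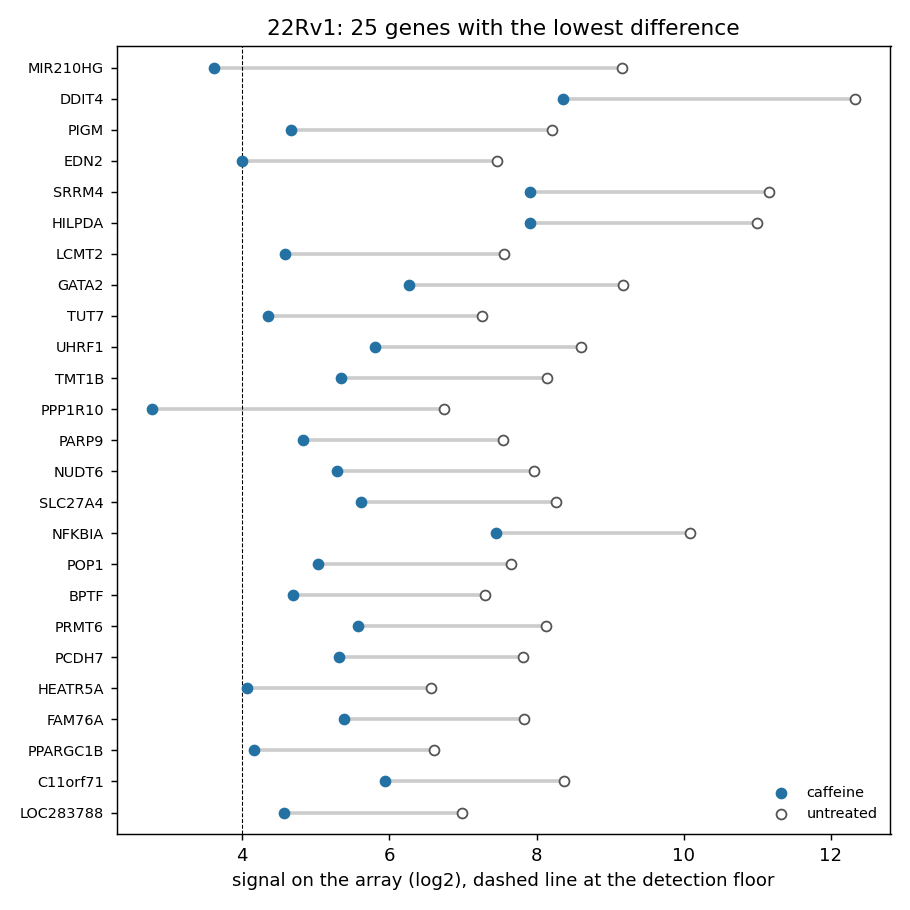
Signals (log2) of the 25 genes with the lowest difference, ranked with signals under 4 set to 4, after caffeine (filled) and in untreated cells (open), 1 array each. MIR210HG and PPP1R10 lie left of the floor after caffeine, and DDIT4 has the highest untreated signal (12.33).

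Other genes among the 25 lowest included the following. SRRM4, the splicing regulator of neural microexons, was at 7.91 after caffeine and 11.15 in untreated cells, and its other probe set differed by -2.81. GATA2, a zinc finger transcription factor, was at 6.27 after caffeine and 9.18 in untreated cells, with its other probe set at -2.29. PIGM, a mannosyltransferase of glycosylphosphatidylinositol anchors, was at 4.66 after caffeine and 8.21 in untreated cells. The vasoconstrictor peptide gene EDN2 was at the floor after caffeine and at 7.46 in untreated cells, a difference of -3.45. UHRF1, which guides the maintenance of DNA methylation, was at 5.81 after caffeine and 8.61 in untreated cells, and the arginine methyltransferase PRMT6 at 5.57 after caffeine and 8.13 in untreated cells. NFKBIA, the inhibitor of NF-kB, was at 7.45 after caffeine and 10.09 in untreated cells, whereas NFKBIZ, a nuclear relative of it, was at 10.17 after caffeine and 6.62 in untreated cells. The other 5 detected NF-kB targets stayed within 1 unit.

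Of the 25 lowest genes, 13 had another detected probe set, and in 9 of them every other detected probe set was lower too. The exceptions were TUT7, a terminal uridylyltransferase, with a main difference of -2.90 and one other probe set at 2.10, BPTF, a subunit of the NURF remodeller, with -2.60 and one at 3.93, PARP9 with -2.72 and one at 0.97, and PCDH7 with -2.51 and one at 0.083. Some of the probe sets that were lower too, such as those of MIR210HG and PIGM, were under 4 after caffeine. They counted as detected only through the untreated array, so the filter fixed their direction. Over all genes, 99 of the 4986 with at least 2 detected probe sets had probe sets past 1 unit in both directions. Examples beyond BPTF and TUT7 were DIDO1 (-4.67 and 1.65), MSI2 (-2.13 and 3.34) and AGO3 (-2.44 and 2.80). For these genes no single direction can be given.

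ID and HES or HEY genes, repressors that hold back differentiation downstream of BMP and Notch, had the lowest median of the lists, -0.72, with 3 of 9 detected lower and none higher. ID3 was at 11.16 after caffeine and 12.46 in untreated cells, and HEY1 at 5.02 after caffeine and 6.24 in untreated cells. HES2 was at 3.62 after caffeine and 6.15 in untreated cells, and ID1 differed by 0.07. In the TGF-beta list 4 of 11 detected were higher and 2 lower. TGFB2, a ligand, was at 6.76 after caffeine and 4.60 in untreated cells, and the repressors TGIF1 and SKIL differed by 1.58 and 1.32, while TGIF2, a relative of TGIF1, was lower, at 5.40 after caffeine and 6.91 in untreated cells. The inhibitory SMAD7 was lower, at 5.41 after caffeine and 6.77 in untreated cells.

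By their main probe sets, most prostate genes moved little. Of 17 detected, 0 were higher and 2 lower, with a median of -0.15. KLK3, which encodes prostate-specific antigen, was at 8.62 after caffeine and 8.33 in untreated cells, and TMPRSS2 at 7.47 after caffeine and 7.55 in untreated cells. The lower members were SLC45A3 (prostein), at 5.30 after caffeine and 7.21 in untreated cells, and the homeobox factor HOXB13, at 9.71 after caffeine and 10.73 in untreated cells. Other probe sets moved farther in some members. That of HOXB13 differed by -2.49. FKBP5 differed by -0.67 and its 2 other probe sets by -2.12 and -1.09, while FOXA1 differed by 0.83 and its other probe set by 1.89. Of 10 detected neuroendocrine granule genes, SCG2 and CALCA were higher. CALCA, the calcitonin gene, was at 7.66 after caffeine and 5.42 in untreated cells, while CHGB differed by 0.95 and CHGA by -0.30.

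Clock genes had 5 of 12 detected higher and 2 lower. BMAL1, the positive arm of the clock, was at 6.26 after caffeine and 4.69 in untreated cells, and NR1D2 (REV-ERB beta), a repressor of BMAL1, at 9.58 after caffeine and 8.07 in untreated cells. The bZIP factors of the output arm ran in opposite directions. NFIL3 was at 6.44 after caffeine and 4.47 in untreated cells, and DBP at 5.44 after caffeine and 7.49 in untreated cells. TEF (1.38) and CRY2 (1.22) were the other higher members, and BHLHE40, which the hypoxia list also holds, was the other lower one at -1.46. Its signal was 2.85 after caffeine and 4.31 in untreated cells, and with signals under 4 set to 4 its difference was -0.31, which leaves 1 lower clock gene.

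Of 23 detected p53 targets, 2 were higher and 3 lower. CDKN1A (p21), the classical target, was at 8.65 after caffeine and 9.67 in untreated cells, and MDM2 differed by -0.27. TP53INP1 and TIGAR were the other lower members, at -1.33 and -1.88. Replication genes had 0 of 28 higher and 3 lower, with a median of -0.37. The lower ones were MCM4 (-1.06), MCM10 (-1.03) and CDC6 (-1.01), all close to the cut-off. Mitosis genes had 0 of 26 higher and 2 lower, ASPM at -1.57 and KIF20A at -1.11. In the BCL2 family 3 of 12 were higher, the survival genes MCL1 (1.31) and BCL2L2 (1.19) and the death effector BAK1 (1.06). Interferon-induced genes had 3 of 8 detected higher, ISG20 (2.22), IRF9 (1.74) and ISG15 (1.14), and OAS3 lower at -1.79. Cholesterol and fatty acid synthesis genes had 1 of 21 higher, the sterol demethylation enzyme MSMO1, at 11.47 after caffeine and 9.87 in untreated cells. Of 6 detected metallothioneins, MT1X lay at the cut-off, and MT2A, MT1G and MT1H lay between 0.86 and 0.90. Metallothionein genes are near-identical, so their probe sets may read each other.

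Lists tied to NMD included its factors, its natural substrates and the candidates of the study. SnoRNA host transcripts carry short open reading frames and are known natural substrates. Of 15 listed, 6 were measured and 5 detected, and 3 of these were higher with a median of 1.04. SNHG17 was at 9.93 after caffeine and 7.90 in untreated cells, EPB41L4A-AS1 at 12.53 after caffeine and 10.83 in untreated cells, and ZFAS1 at 13.84 after caffeine and 12.81 in untreated cells. GAS5 differed by 0.32, but its probe set was close to the floor, at 4.74 after caffeine and 4.42 in untreated cells. Its value therefore says little about that transcript. Splicing factors with poison exons, which NMD removes, had 6 of 21 (28.6%) higher and none lower. Of these, TIAL1 differed by 1.14 but had another probe set at -1.21, so no single direction can be given for it. The kinase CLK1, which phosphorylates SR proteins, was at 10.17 after caffeine and 8.21 in untreated cells, and PTBP2 at 8.58 after caffeine and 7.36 in untreated cells. The SR protein genes SRSF1 (0.29), SRSF3 (0.06) and SRSF7 (-0.25) stayed within 1 unit. Of 14 detected NMD factors, the endonuclease SMG6 was higher, at 5.43 after caffeine and 3.85 in untreated cells, and the rest lay within 1 unit, with SMG9 at 0.96 and SMG5 at 0.76.

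The 4 genes that the study picked for 22Rv1 were all higher. They were picked on these arrays, among other things for a higher signal after caffeine, so their direction is not independent evidence. PDS5B, a regulator of cohesin also known as AS3, was at 8.57 after caffeine and 5.94 in untreated cells, and its other detected probe set differed by 1.86. For AS3 the paper has evidence besides the arrays. It reports RT-PCR in which caffeine raised AS3 mRNA in 22Rv1 cells, and sequencing that found frameshift mutations in both alleles. TTLL7, a tubulin polyglutamylase, was at 5.56 after caffeine and 3.55 in untreated cells, and AGO2, the slicing Argonaute, at 5.03 after caffeine and 3.46 in untreated cells, both with untreated signals under the floor. EIF5, a translation initiation factor, was at 10.08 after caffeine and 9.07 in untreated cells, with 4 other probe sets at 0.80 to 1.92. Among the other cohesin genes SMC1A (0.01), RAD21 (0.05) and SMC3 (-0.26) were close to zero. ESCO2, an acetyltransferase of cohesin, was at 3.10 after caffeine and 4.68 in untreated cells, and its difference of -1.58 became -0.68 with signals under 4 set to 4.

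Zinc finger genes with ZNF symbols formed a large group. Of 329 detected, 56 (17.0%) were higher and 21 (6.38%) lower, with a median of 0.18. With signals under 4 set to 4 the counts were 50 and 14. ZNF418 was at 7.16 after caffeine and 4.65 in untreated cells, and ZNF227 at 8.95 after caffeine and 6.44 in untreated cells. ZNF652 was among the lower ones, at 6.46 after caffeine and 8.79 in untreated cells, although another probe set of it differed by 0.04.

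Genes of the basic machinery were mostly within 1 unit. The 53 detected cytosolic ribosomal protein genes lay between -0.35 and 0.22, and none of 66 genes of the respiratory chain and ATP synthase passed 1 unit. Of 31 proteasome subunits only PSMD11 did, at 7.74 after caffeine and 9.41 in untreated cells. Among 75 mitochondrial ribosomal protein genes, whose median was -0.25, only MRPS30 did, at 9.95 after caffeine and 8.89 in untreated cells, and its other probe sets differed by -0.09 and -0.33.

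LNCaP, another established prostate cancer line, started from a metastasis in a lymph node, went through the same caffeine step, and its values are set beside those of 22Rv1 without a test, since 1 array per plate leaves no spread between replicates. In LNCaP 557 of 10737 detected genes were higher (5.19%) and 397 lower (3.70%). The genes higher in both lines numbered 258, which is 28% of those of 22Rv1 and 46.3% of those of LNCaP, and 138 were lower in both, 20.6% and 34.8%. Of the genes of 22Rv1, 134 of 922 higher and 111 of 671 lower ones were not detected in LNCaP. Of all 10961 genes detected in 22Rv1, 10178 were detected in LNCaP too.

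The cAMP list had medians of 2.07 in 22Rv1 and -0.18 in LNCaP, over 20 and 11 detected genes. CGA, NR4A2, PTGS2, SCG2, FOS, NR4A3 and PDE4B were below the floor in both LNCaP plates, and NR4A1 and CREM, which were detected there, both differed by -0.51, whereas SIK1 (0.60), NFIL3 (0.55) and PDE4D (0.43) were above zero. The 1 member called higher in LNCaP was the coactivator CRTC2, which differed by 1.70 there and by 0.90 in 22Rv1. The ERK feedback list had medians of 1.47 in 22Rv1 and 0.03 in LNCaP, over 15 and 11 detected genes. Its 22Rv1 median is the value of DUSP5, which became 0.71 with signals under 4 set to 4. DUSP5, DUSP6, SPRY2 and SPRY4 were below the floor in both LNCaP plates. The immediate early list had medians of 1.31 in 22Rv1 and 0.36 in LNCaP, over 21 and 18 detected genes. DUSP4 in LNCaP was already at 7.95 untreated and differed by 0.41. Other lists lay closer together. The FOXO list had medians of 0.77 in 22Rv1 and 0.70 in LNCaP, the ATF4 list 0.25 in 22Rv1 and 0.27 in LNCaP, and the hypoxia list -0.15 in 22Rv1 and -0.32 in LNCaP. ATF4 differed by 1.67 in 22Rv1 and 1.82 in LNCaP, PPP1R15A by 3.10 in 22Rv1 and 2.84 in LNCaP and PFKFB3 by -2.32 in 22Rv1 and -2.24 in LNCaP. Mitosis genes had medians of -0.11 in 22Rv1 and 0.70 in LNCaP. Among the 25 highest genes of 22Rv1, 6 were also higher in LNCaP and 10 were not detected there, and among the 25 lowest 13 were also lower in LNCaP and 2 were not detected there. The hybridization controls differed by -0.13 in 22Rv1 and -0.51 in LNCaP, the 18S rRNA probe sets by 0.08 in 22Rv1 and -1.51 in LNCaP, and the 28S rRNA probe sets by -0.10 in 22Rv1 and -1.95 in LNCaP (3 probe sets each). Their part in the values of the lines was not tested.

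**Figure D5:**
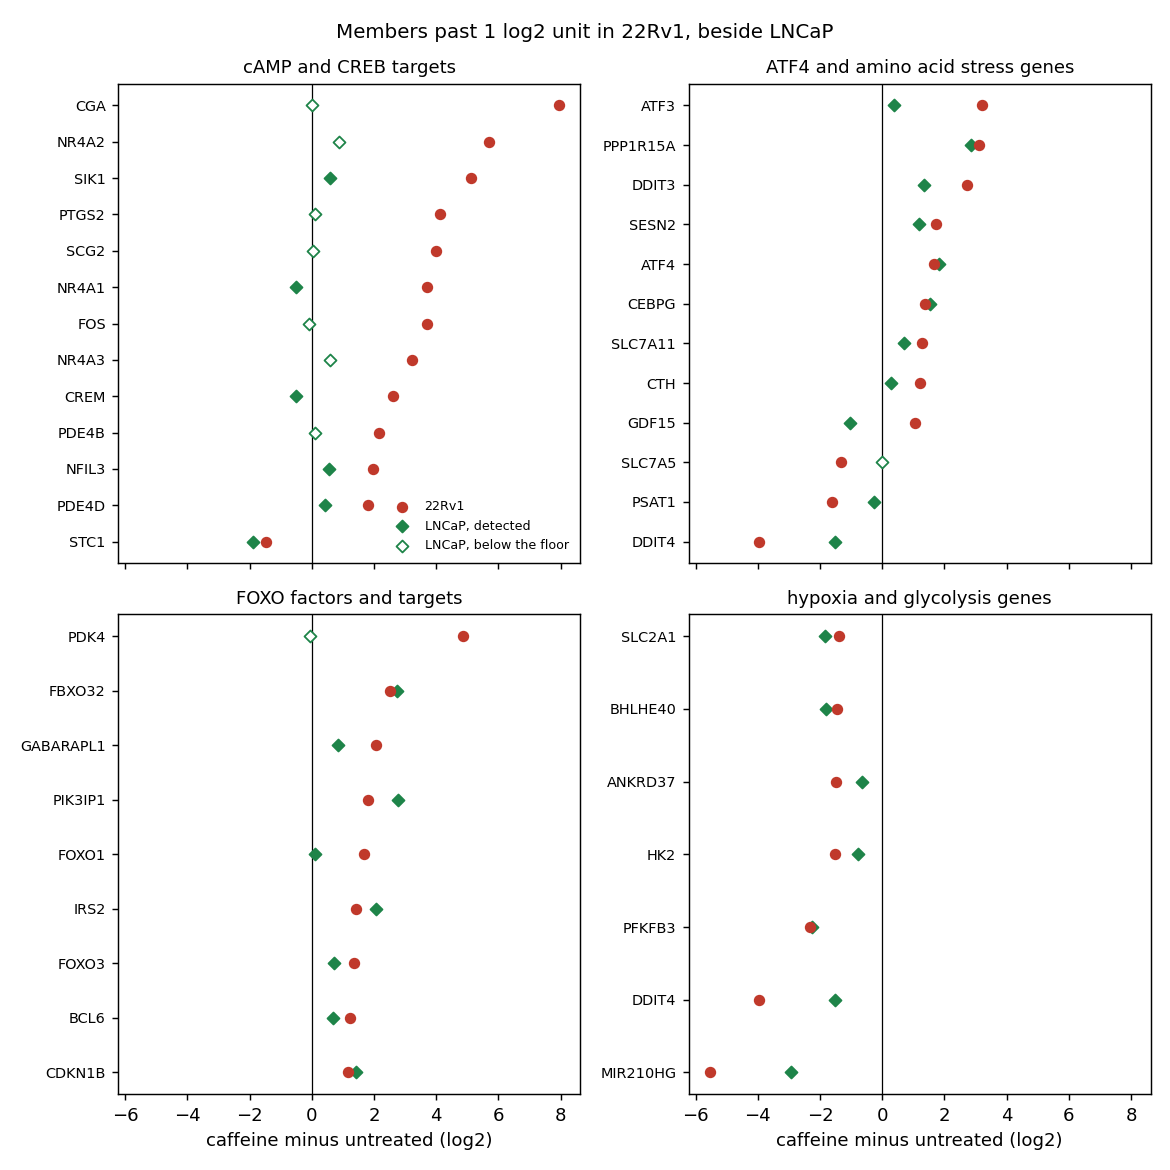
Difference, caffeine minus untreated (log2, 1 array per plate), of members of 4 gene lists past 1 unit in 22Rv1 (circles), with the same genes in LNCaP (filled diamonds where detected, open where below the floor in both plates). The cAMP and CREB targets shown lie near zero or below the floor in LNCaP except STC1 (-1.89). CRTC2 of that list is not shown, since it stayed within 1 unit in 22Rv1. The values of the lines lie close together for PPP1R15A (3.10 in 22Rv1 and 2.84 in LNCaP) and PFKFB3 (-2.32 in 22Rv1 and -2.24 in LNCaP).

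The later plates of 22Rv1 carried the caffeine step and then actinomycin D for a further 4 h. The signal of CGA was 13.34 after caffeine, 12.67 after actinomycin D with caffeine and 12.49 after actinomycin D alone. PDK4 was at 12.83 after caffeine, 11.64 after actinomycin D with caffeine and 11.43 after actinomycin D alone, and SCG2 at 8.17, 7.71 and 7.82 in the same order. Other leading genes were lower on these plates. GEM was at 11.54 after caffeine, 6.38 after actinomycin D with caffeine and 6.08 after actinomycin D alone, EGR1 at 11.85, 6.90 and 7.40 in the same order, and SIK1 at 10.23, 6.02 and 5.70. PDS5B was at 8.57 after caffeine, 7.80 after actinomycin D with caffeine and 6.36 after actinomycin D alone. Quantile normalization ties these levels to the transcripts left on each array, so they are relative levels and not amounts per cell.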

How the data were processed

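Total RNA of each plate was hybridized to 1 array by the authors, who background corrected, quantile normalized over 8 arrays and summarised the signals with gcRMA. The deposited values are log2 signals per probe set and were used as they are. RMA and GCRMA are named in the submitters' processing notes, and versions are not given in the sources used here. Quantile normalization gives every array the same distribution (median 2.75, 38.4% of probe sets at 4 or more), so values are relative to the other transcripts on the array, and the single array per side limits the precision.

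Genes came from the platform annotation: 41097 probe sets had 1 symbol, 1801 several and 11777 none, and 41043 of the first matched RefSeq (GRCh38.p14), for 19775 genes. Genes that no probe set reads alone are not analysed here. Differences were caffeine minus untreated. No model was fitted, and the code was checked on simulated data. Named were the 25 highest and 25 lowest genes (signals under 4 set to 4) and the 4 members of each list farthest from zero. Also named were the study's candidates, the 6 genes past 1 unit in opposite directions in LNCaP, and more members of the lists treated at length. IFRD1, COL1A1 and the genes with conflicting probe sets were singled out after their values were seen. The members and gene lists were chosen with earlier results of these data known. Alternatives were other cut-offs, floors, centrings and probe set choices. Python 3.11.15, numpy 2.4.6, pandas 2.3.3 and matplotlib 3.10.9 were used.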

Additional observations from a re-analysis of the deposited data

Results flagged for a closer look

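Of 10178 genes detected in both lines, 6 passed 1 log2 unit in opposite directions after caffeine, and for none of them was the difference between the lines tested. NKAIN1 differed by -1.65 in 22Rv1 and 1.24 in LNCaP, a gap of -2.89. Its untreated signal in LNCaP was under the floor at 3.18, with 4.42 after caffeine. Its LNCaP difference and its gap are therefore uncertain in size. TENT5C differed by -1.49 in 22Rv1 and 1.02 in LNCaP, a gap of -2.51. FAM43A differed by 1.06 in 22Rv1 and -1.65 in LNCaP, a gap of 2.71. NEDD9, a scaffold protein of focal adhesions, differed by 1.15 in 22Rv1 and -1.12 in LNCaP, a gap of 2.27, and its untreated signal in 22Rv1 was under the floor at 3.28. TBC1D30 had a gap of 2.23, with 1.10 in 22Rv1 and -1.13 in LNCaP. GDF15, a stress-induced cytokine of the TGF-beta family, had a gap of 2.09, at 11.52 after caffeine and 10.48 in untreated 22Rv1 cells, and 11.47 after caffeine and 12.52 in untreated LNCaP cells. All 6 lay between 1.04 and 1.65 in size in 22Rv1. The pooled SD between probe sets of a gene was 0.65 over all signals and 0.31 at mean signals of 10 or more, where GDF15 lies.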

How the results depend on the processing

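No paired analysis was possible because each side has 1 array, and for the same reason no array could be left out. Counts of higher and lower probe sets were 2025 and 1708, and of genes 922 and 671. With a cut-off of 1.3 they were 1257 and 915 probe sets and 531 and 354 genes, and with a cut-off of 2 they were 436 and 225 probe sets and 159 and 81 genes. Centring on the poly-A controls, which adds 0.26 to every difference, gave 3056 and 990 probe sets and 1439 and 389 genes. A floor of 6 left 1121 lower probe sets, and leaving out probe sets with IDs ending in _x_at or _s_at left 1098. Counts under the other floors, centrings and probe set choices stayed within 1.5 times. The medians of all 37 lists moved by less than 0.65 under the 5 alternatives. Centring on the hybridization or poly-A controls adds 0.13 or 0.26 to every median, so for these the result was fixed beforehand. The limit also exceeds many of the medians in size, so a median could change sign within it. The hypoxia and glycolysis median of -0.15, for example, is smaller in size than the 0.26 added. Among named genes the sign turned with another probe set in TUT7 (2.10), PARP9 (0.97, also with the probe set brightest on the 2 arrays), BPTF (3.93), PCDH7 (0.083, also with the probe set brightest on the 2 arrays), EGFR (-1.85), KLF6 (-0.27), KLF7 (-2.13 and -2.11), KLF3 (1.59, 0.40 and 0.60, and 0.29 as the mean of its probe sets), TIAL1 (-1.21), HDAC8 (-0.27, also with the probe set brightest on the 2 arrays), MRPS30 (-0.088 and -0.33) and ZNF652 (0.035), and, of genes within 1 unit, in PSMD12 (-2.30), TFE3 (-0.40), WAPL (-0.37) and RPL18 (-0.11). Of the other probe sets of named genes, 61 were counted as unchanged and 70 as moved. Some called genes kept their sign but had another probe set well under 1 unit. Examples are MCL1 (lowest 0.07), RRAGD (0.12), SESN2 (0.27) and TGIF1 (0.23). The cause was not tested.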
